A study of Mus musculus with 8 samples.

Results

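The genes described here are 8 genes of hemoglobin and of the red cell, Hba-a1, Hba-a2, Hbb-bs, Hbb-bt, Alas2, Fech, Slc4a1 and Bpgm, out of 31053 genes in the count files. They were given by name, not picked by a cut on a measured value, and were found by matching Ensembl identifiers to gene symbols, and each symbol matched 1 identifier. The RNA came from retinal pigment epithelium (RPE), the pigmented layer behind the retina, of mice at postnatal day 29 on a C57/Bl6 background, and 4 Bbs8-/- mice were compared with 4 Bbs8+/+ littermates. Bbs8, listed as Ttc8, encodes a subunit of the BBSome, a complex that moves membrane proteins in cilia. The deletion is a global one, so every cell type of these eyes lacked Bbs8, including photoreceptors, vessels and blood. Sex was not determined, no mouse was treated, and each mouse counted as a biological replicate. RPE sheets were lifted off the choroid after trypsin digestion of eyecups from which cornea, lens and retina had been taken away. The sheets were then rinsed in buffered saline, and no perfusion of the vessels is described in the sources used here.

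Hemoglobin of adult mice is built of a pair of alpha and a pair of beta chains, each holding a heme group that binds oxygen. Both kinds of chain come from neighboring gene copies, Hba-a1 and Hba-a2 for alpha and, in mice of this background, Hbb-bs and Hbb-bt for beta, and their RNA makes up most of the message of maturing red cells and persists in reticulocytes, the youngest red cells of the circulation. Heme is made by a chain of enzymes shared by all cells, whose first step is run by Alas2 in erythroid cells and by Alas1 elsewhere. The choroid, from which RPE is peeled, is among the most richly perfused tissues of the body.

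The libraries held 2389835 to 3093428 counts on genes. Reads came from the 3′ end of each transcript, so a value does not depend on transcript length. A count of 3, taken as the floor, was 0.970 to 1.26 CPM without TMM scaling. CPM is the count relative to library size, scaled by TMM unless stated. Of the genes, 12889 reached 1 CPM without TMM scaling in at least 4 libraries and were tested with edgeR's quasi-likelihood test, two-sided. The adjusted p-values below come from this test. Ttc8 fell from 47.6 ± 10.3 to 4.70 ± 1.97 CPM (SD, n = 4), so the targeted gene went with the labels. Of the labeled tissue, all 14 RPE genes of a fixed list passed the filter. Rpe65, the isomerase of the visual cycle, stood at 4640 CPM in Bbs8+/+ and 3916 CPM in Bbs8-/- libraries. Best1, of the same list, was near the floor, at 1.06 CPM in Bbs8+/+ and 0.937 CPM in Bbs8-/- libraries. Photoreceptor RNA was also abundant. Among the Bbs8+/+ libraries, replicate 1 stood somewhat apart, with a chi-square per degree of freedom of 6.07 to 7.51 against the other 3, which differed among themselves by 2.87 to 3.41. Without it, Slc4a1 was not tested, the calls of the other 7 genes were as given below and the log2 ratio of the globin total was -1.31 in place of -1.34.

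The alpha globin copies are nearly the same gene. Hba-a1 (ENSMUSG00000069919) lies at chr11:32283511-32284465 and Hba-a2 (ENSMUSG00000069917) at chr11:32296489-32297298, both on the forward strand of GRCm38. Over 426 coding bases they differed at 1, C381T, where the Hba-a1 base comes first and positions count from 1 at the A of the start codon. The coding bases of the last exon, from the GENCODE transcripts, show how little there is to tell a read of one copy from a read of the other, and the capital marks the differing base.
Hba-a1 (chr11:32284263-32284388, forward strand): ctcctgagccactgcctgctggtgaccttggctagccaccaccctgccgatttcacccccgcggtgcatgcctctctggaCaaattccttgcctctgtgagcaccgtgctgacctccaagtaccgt
Hba-a2 (chr11:32297080-32297205, forward strand): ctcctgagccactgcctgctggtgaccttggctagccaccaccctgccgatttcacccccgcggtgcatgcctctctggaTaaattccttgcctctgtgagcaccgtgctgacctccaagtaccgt

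The beta copies, Hbb-bs (ENSMUSG00000052305) at chr7:103826534-103828096 and Hbb-bt (ENSMUSG00000073940) at chr7:103812524-103813996 on the reverse strand, also differed at 1 of their 441 coding bases, C417T. Beyond the coding bases the transcript ends diverge. Of the 201 stretches of 100 bases, the read length, in the last 300 bases of each transcript, 100 (49.8%) were found in no other annotated gene for Hba-a1, 116 (57.7%) for Hba-a2, 159 (79.1%) for Hbb-bs and 160 (79.6%) for Hbb-bt. Reads that fit both copies map to more than 1 place and were left out of the counts, so the count of each globin gene is a lower limit on its reads and the split between copies is uncertain.

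The stretches of 250 bases before the RefSeq start sites (GRCm38.p6) are shown for Hba-a1, Hbb-bs, Hbb-bt and Alas2, which fell, and for Bpgm, which did not. These genes were picked by how they moved, and the stretches before Fech and Slc4a1 were not searched. Capitals mark matches, on either strand and with overlapping matches counted separately, to a GATA motif (AGATAA, where a first letter T and a last letter G also counted), to the CACCC box, to the CCAAT box and to a TATA motif (TATAAA, or the same box shifted by 1 base, which begins with AT and reads ATATAA).
Hba-a1 upstream (chr11:32283422-32283671, forward strand): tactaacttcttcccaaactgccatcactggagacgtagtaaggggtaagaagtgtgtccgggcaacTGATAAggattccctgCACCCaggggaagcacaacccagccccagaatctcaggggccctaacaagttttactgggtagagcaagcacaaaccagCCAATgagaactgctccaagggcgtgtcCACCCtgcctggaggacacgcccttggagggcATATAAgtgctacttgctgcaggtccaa
Hbb-bs upstream (chr7:103827929-103828178, reverse strand): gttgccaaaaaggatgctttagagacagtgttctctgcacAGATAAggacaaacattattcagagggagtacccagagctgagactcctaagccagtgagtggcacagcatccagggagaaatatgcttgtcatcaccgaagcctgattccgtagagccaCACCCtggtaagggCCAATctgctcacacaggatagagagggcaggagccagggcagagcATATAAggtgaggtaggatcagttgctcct
Hbb-bt upstream (chr7:103813924-103814173, reverse strand): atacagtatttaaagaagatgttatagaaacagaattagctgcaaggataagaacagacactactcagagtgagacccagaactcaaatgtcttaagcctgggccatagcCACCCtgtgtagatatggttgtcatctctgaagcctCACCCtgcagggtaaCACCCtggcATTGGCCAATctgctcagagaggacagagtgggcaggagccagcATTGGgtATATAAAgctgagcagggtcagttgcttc
Alas2 upstream (chrX:150547167-150547416, forward strand): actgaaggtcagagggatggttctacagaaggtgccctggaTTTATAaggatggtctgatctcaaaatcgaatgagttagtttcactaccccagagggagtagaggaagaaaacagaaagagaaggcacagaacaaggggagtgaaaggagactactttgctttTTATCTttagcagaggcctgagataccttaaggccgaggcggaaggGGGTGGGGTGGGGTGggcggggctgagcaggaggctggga
Bpgm upstream (chr6:34476106-34476355, forward strand): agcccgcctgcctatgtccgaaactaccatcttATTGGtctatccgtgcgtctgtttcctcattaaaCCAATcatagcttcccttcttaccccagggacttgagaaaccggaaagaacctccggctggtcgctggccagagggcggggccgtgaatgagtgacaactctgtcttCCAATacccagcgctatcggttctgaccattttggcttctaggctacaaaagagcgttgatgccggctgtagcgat

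The GATA letters lay 183 bases before the start of Hba-a1, 210 bases before that of Hbb-bs and 86 bases before that of Alas2, and they were not found in the windows of Hbb-bt and Bpgm. CACCC occurred in all of these windows except that of Bpgm. A TATA match lay 28 bases before the start of Hba-a1 and 30 bases before that of Hbb-bs. Over 32851 upstream windows of the same length, 26.5% held the GATA letters, 52.0% CACCC, 33.8% CCAAT and 16.7% the TATA letters, so each is common. A part of these motifs in the genotype difference was not tested. The window of Hba-a2 is not printed because 297 bases around its start are identical to those of Hba-a1.

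All 4 adult globin genes were down-regulated in Bbs8-/- RPE, by 2.16- to 2.63-fold, and Alas2 was down-regulated with them. Fech, Slc4a1 and Bpgm did not pass the test. In all, 5 of the 8 genes fell and 0 rose at an adjusted p under 0.05 from edgeR, and the same 5 had an unadjusted p under 0.05 and were called by DESeq2. Of all tested genes, 6.80% fell, 5.46% rose and 12.3% were called in either direction. The same 5 genes were lower in every Bbs8-/- library than in any Bbs8+/+ library, which was so for 8.62% of all tested genes. Each of them was called with a log2 fold change under -1, and both conditions held for 1.65% of all tested genes. The median log2 fold change was -1.34 over the 8 genes and -1.33 over the 7 without Slc4a1, which is near the floor, and 0.022 over all tested genes. In RNA of whole tissue, fewer red cells and less RNA in each red cell cannot be told apart.

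**Figure D1:**
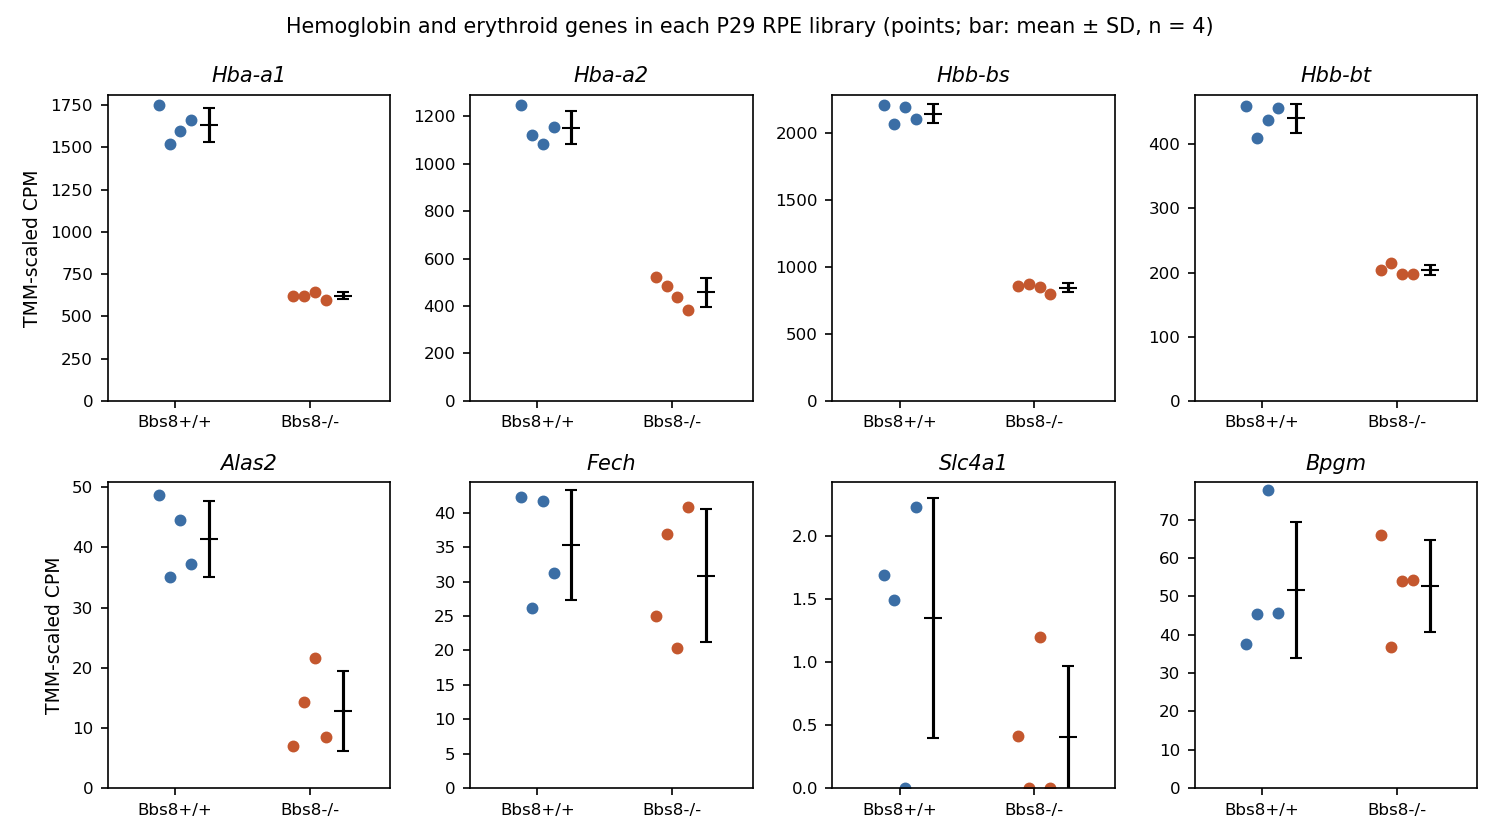
TMM-scaled CPM (vertical axis, from 0) of the 8 genes in the 4 Bbs8+/+ (blue) and 4 Bbs8-/- (orange) libraries, with 1 point per library and bars for the mean and SD. The genotypes are separated for the 4 globin genes and Alas2, with Hbb-bs at 2067 to 2209.9 CPM against 799 to 871 CPM, and they overlap for Fech, Slc4a1 and Bpgm.

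Hba-a1, an alpha chain gene, had 1752, 1519, 1597 and 1664 CPM in Bbs8+/+ replicates 1 to 4 and 623, 621, 645 and 596 CPM in Bbs8-/- replicates 1 to 4. The genotypes were far apart and the knockout libraries lay close together. Its log2 fold change was -1.39 (standard error 0.0682, adjusted p = 1.05e-18 from edgeR), or 2.63-fold lower. The second alpha copy, Hba-a2, was at 1247, 1121.5, 1082 and 1157 CPM in Bbs8+/+ and at 523, 486, 438 and 385 CPM in Bbs8-/- libraries. Its knockout libraries were more spread than those of Hba-a1 (SD 59.9 against 20.1 CPM), but none came near the wild type. Hba-a2 fell by 1.33 on the log2 scale (standard error 0.0821, adjusted p = 1.13e-15 from edgeR).

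Hbb-bs, the beta chain gene with the highest counts here, was at 2209.9, 2067, 2193.5 and 2108 CPM in Bbs8+/+ and at 860.1, 871, 852 and 799 CPM in Bbs8-/- libraries. No library of either genotype stood out from its group. The log2 fold change was -1.34 (standard error 0.0628, adjusted p = 2.54e-19 from edgeR). Hbb-bt, its neighbor, had 459, 409.5, 438 and 456 CPM in Bbs8+/+ and 204, 215, 198 and 197 CPM in Bbs8-/- libraries. It was separated as cleanly, with a smaller log2 fold change of -1.11 (standard error 0.0875, 95% interval -1.29 to -0.94, adjusted p = 1.24e-12 from edgeR), beside an interval of -1.47 to -1.22 for Hbb-bs.

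Summed over the 4 genes, adult globin was at 5668, 5117, 5311 and 5385 CPM in Bbs8+/+ and at 2210.5, 2192, 2134 and 1977 CPM in Bbs8-/- libraries. The mean was 2.52-fold lower in the knockout (5370.2 ± 228 against 2128 ± 106 CPM, SD, n = 4). As a plain share of the counts on genes, with no TMM scaling, globin took 0.501% to 0.541% of a Bbs8+/+ library and 0.207% to 0.225% of a Bbs8-/- library, 2.37-fold lower. No p is given for these sums, since the genes were chosen with results of these libraries known. Alpha and beta chains moved by about the same amount. The alpha total fell by 1.37 and the beta total by 1.30 on the log2 scale, and the ratio of alpha to beta counts overlapped between genotypes, at 1.02 to 1.12 in Bbs8+/+ and 0.985 to 1.08 in Bbs8-/- libraries.

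The split between gene copies was read within each library. Hbb-bs took 82.8%, 83.5%, 83.4% and 82.2% of the beta counts in Bbs8+/+ and 80.8%, 80.2%, 81.1% and 80.2% in Bbs8-/- libraries. The groups did not overlap, and the mean share was 2.37 percentage points lower in the knockout. Hba-a1 took 58.4%, 57.5%, 59.6% and 59.0% of the alpha counts in Bbs8+/+ and 54.4%, 56.1%, 59.6% and 60.8% in Bbs8-/- libraries. These overlapped, and the knockout libraries were spread more widely than the wild type on either side of it. The lowest of them (replicate 1, 95% Wilson interval 52.5% to 56.2%) and the highest (replicate 4, 59.0% to 62.6%) differed by more than counting error, which is all these intervals cover, since the reads carry no molecular identifiers. A ratio within a library cannot be moved by scaling, but it does rest on the reads that fit 1 copy alone.

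**Figure D2:**
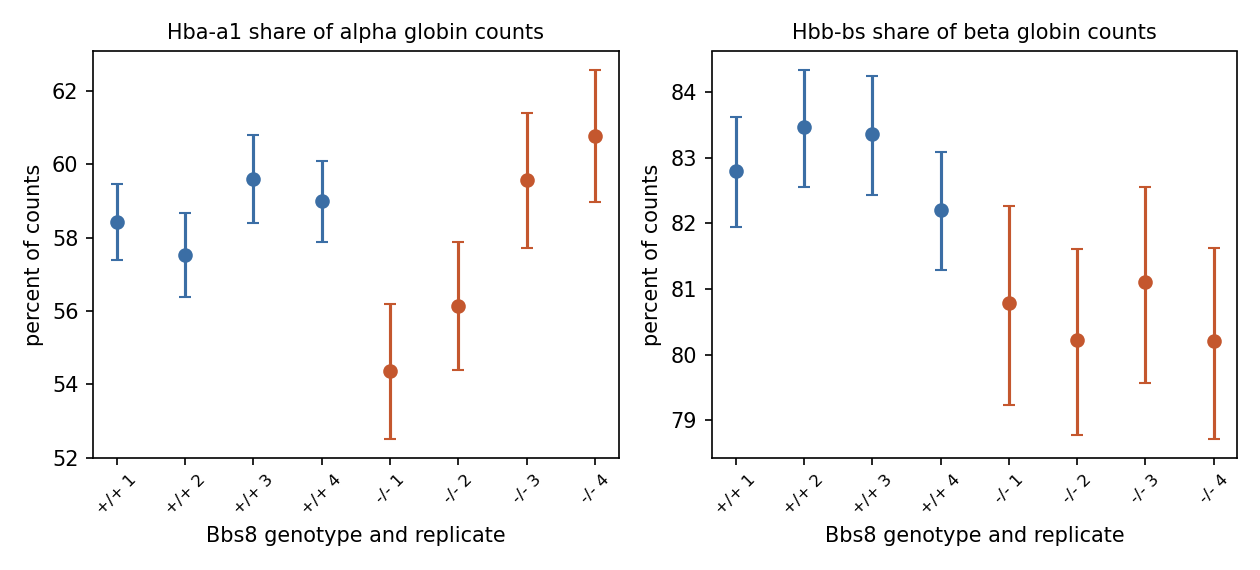
Share of Hba-a1 in the alpha globin counts (left) and of Hbb-bs in the beta globin counts (right), in percent (vertical axes, not starting at 0), for each library by Bbs8 genotype and replicate, with 95% Wilson intervals for counting error. The Hbb-bs share lies at 82.2% to 83.5% in Bbs8+/+ and 80.2% to 81.1% in Bbs8-/- libraries, while the Hba-a1 shares overlap.

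Alas2 (ENSMUSG00000025270, chrX:150547375-150570638, forward strand), the erythroid enzyme that commits glycine to heme synthesis, had 144, 94, 109 and 100 counts in Bbs8+/+ and 17, 40, 54 and 24 counts in Bbs8-/- libraries. In CPM this was 48.7, 35.1, 44.6 and 37.2 against 6.98, 14.3, 21.6 and 8.39. The highest knockout library, replicate 3, lay well under the lowest wild type, replicate 2. Its log2 fold change was -1.69 (standard error 0.268, adjusted p = 1.07e-05 from edgeR), and 0.830% of tested genes had a lower one. Set against globin, Alas2 gave 6.85 to 8.60 counts per 1000 globin counts in Bbs8+/+ and 3.16 to 10.1 in Bbs8-/- libraries, so the ratio overlapped. Alas2 overlaps Apex2, a DNA repair gene, and Mir3620, both on the opposite strand. The strand setting of the counting is not given in the sources used here, so reads of Alas2 and Apex2 may not be fully told apart. Apex2 itself had 10 to 53 counts in a library and did not pass the test (log2 fold change 0.85, adjusted p = 0.192 from edgeR).

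Fech (ENSMUSG00000024588), the enzyme that inserts iron into the finished porphyrin ring in all cells that make heme, was at 42.3, 26.1, 41.7 and 31.2 CPM in Bbs8+/+ and at 25.045, 36.9, 20.4 and 40.9 CPM in Bbs8-/- libraries. The libraries of both genotypes were interleaved. Its log2 fold change was -0.19 with a 95% interval of -0.64 to 0.25 (adjusted p = 0.688 from edgeR), an interval that does not reach the fall of any globin gene. Bpgm (ENSMUSG00000038871, chr6:34476207-34505613, forward strand), which makes the 2,3-bisphosphoglycerate that loosens oxygen from hemoglobin, was at 37.6, 45.5, 77.7 and 45.7 CPM in Bbs8+/+ and at 66.1, 36.9, 54.0 and 54.2 CPM in Bbs8-/- libraries. Replicate 3 was the highest of the wild type and of all 8 libraries. The log2 fold change of Bpgm was 0.04 with a 95% interval of -0.35 to 0.42 (adjusted p = 0.949 from edgeR), and its sign turned when any of 4 libraries was left out.

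Slc4a1 (ENSMUSG00000006574, chr11:102348824-102366203, reverse strand), the band 3 anion exchanger of the red cell membrane, had 5, 4, 0 and 6 counts in Bbs8+/+ and 1, 0, 3 and 0 counts in Bbs8-/- libraries. Every library lay at or near the floor of 3 counts, so no fold is given. The gene passed the filter through 3 Bbs8+/+ libraries and 1 Bbs8-/- library and did not pass the test (adjusted p = 0.460 from edgeR). A difference in Slc4a1 was not detectable at this depth.

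**Figure D3:**
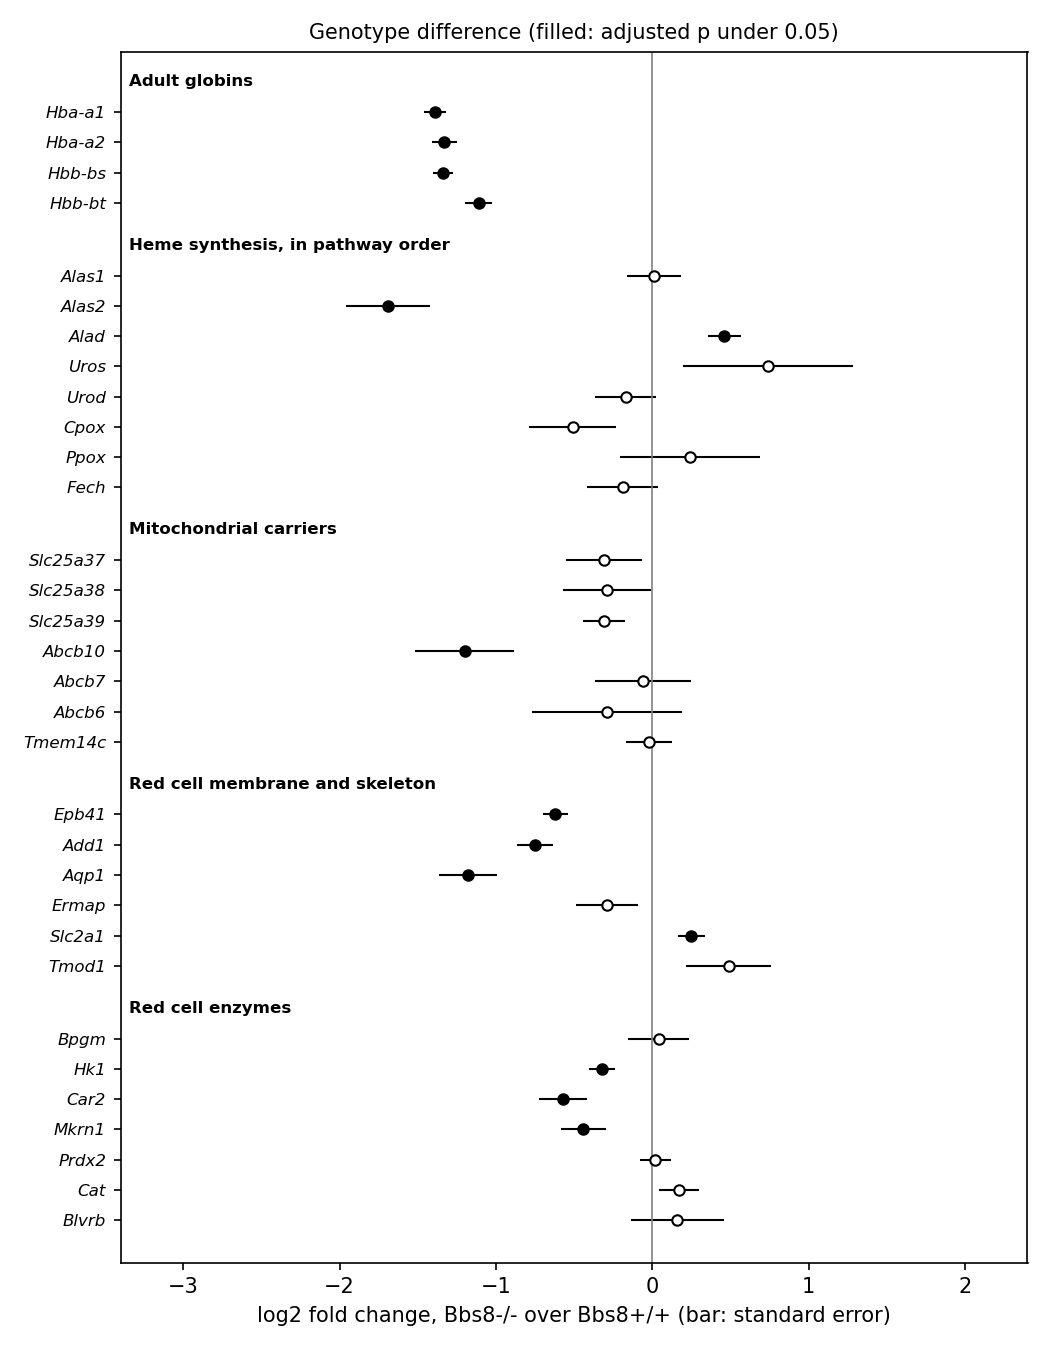
log2 fold change (horizontal axis, Bbs8-/- over Bbs8+/+, bars for the standard error) of the globin genes, enzymes of heme synthesis, the mitochondrial carriers and genes of the red cell membrane and cytoplasm, with filled points for an adjusted p under 0.05 from edgeR. The globin genes lie between -1.39 and -1.11 and Alas2 at -1.69, while the other heme enzymes shown run from -0.51 for Cpox to 0.74 for Uros.

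The rest of the heme pathway did not follow Alas2. All 9 enzymes were tested, of which 1, Alas2, fell, and the median log2 fold change was 0.01. Alas1, which runs the first step outside the red cell line, was at 46.6 CPM in Bbs8+/+ and 47.0 CPM in Bbs8-/- libraries (log2 fold change 0.01, adjusted p = 0.978 from edgeR). Alad, the second enzyme, rose from 145 to 199 CPM without overlap (0.46, adjusted p = 0.0023 from edgeR). Uros, Urod, Cpox and Ppox, later steps on the way to Fech, had log2 fold changes of 0.74, -0.17, -0.51 and 0.24 and did not pass.

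Of 15 genes for iron uptake and for the mitochondrial carriers of heme synthesis, 1 rose and 1 fell, and the median log2 fold change was -0.21. The one that fell was Abcb10, a transporter of the inner mitochondrial membrane that erythroid cells need for heme synthesis, from 22.5 to 9.78 CPM without overlap (-1.20, adjusted p = 0.00733 from edgeR). Without Bbs8+/+ replicate 4 its adjusted p was 0.0605. Slc25a37, the mitoferrin that brings iron into erythroid mitochondria, did not pass (log2 fold change -0.31, adjusted p = 0.505), nor did Tfrc, the transferrin receptor (0.11, adjusted p = 0.814). Ireb2, which senses iron and binds the messages of iron genes, rose with an adjusted p just under the threshold (0.52, adjusted p = 0.0494), with genotypes that overlapped. Its adjusted p lay between 0.0543 and 0.285 when Bbs8+/+ replicate 1, 2 or 4 or Bbs8-/- replicate 2, 3 or 4 was left out, and was 0.0672 with the replicate block and 0.0509 with TMM factors that left out genes of other cells.

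Globins of the embryo were not seen. Hba-x, Hbb-y, Hbb-bh1, Hbb-bh2, Hbq1a and Hbq1b had 0 counts in all 8 libraries, which allows up to 3 counts, or 1.26 CPM without TMM scaling, in the shallowest. Ahsp, the chaperone of free alpha chains, was not matched to the files. Of the globins of other cells, Mb of muscle and Ngb of neurons had at most 2 counts in a library. Cygb, a globin of fibroblast-like and other cells, fell from 153 to 91.7 CPM without overlap (log2 fold change -0.74, adjusted p = 0.00013 from edgeR).

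Several genes typical of red cells lay under the filter. Of 20 genes of the red cell membrane and its skeleton, 12 were tested, and 3 fell and 1 rose. Epb41, the band 4.1 protein, fell from 571 to 372 CPM (-0.62, adjusted p = 3.22e-07 from edgeR), Add1, an adducin, from 152 to 90.1 CPM (-0.75, 6.67e-06) and Aqp1, a water channel, from 68.9 to 30.3 CPM (-1.18, 9.66e-06). These 3 genes are also used by many other cells. The one that rose was Slc2a1, a glucose transporter that RPE also uses (0.25, adjusted p = 0.0454), which had an adjusted p of 0.0609 to 0.222 when any of 6 libraries was left out, Bbs8+/+ replicate 1, 2 or 4 or Bbs8-/- replicate 1, 3 or 4, of 0.0647 with the replicate block and of 0.108 by edgeR's likelihood ratio test. The median over the 12 was 0.01. Epb42, Rhd and Kel had 0 counts in all 8 libraries.

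Of 22 genes for red cell and reticulocyte enzymes and late erythroid proteins, 15 were tested, 3 fell and 1 rose, with a median log2 fold change of 0.02. Car2, a carbonic anhydrase, fell by 0.57 on the log2 scale (adjusted p = 0.0104 from edgeR), Hk1, a hexokinase, by 0.32 (adjusted p = 0.00706) and Mkrn1, a ubiquitin ligase, by 0.44 (adjusted p = 0.0353). Mkrn1 had an adjusted p of 0.0528 to 0.145 when any of 6 libraries was left out, Bbs8+/+ replicate 2, 3 or 4 or Bbs8-/- replicate 1, 2 or 3. With library size scaling in place of TMM, Hk1 and Mkrn1 had adjusted p-values of 0.0621 and 0.110. Tent5c, an RNA polymerase that lengthens poly-A tails, rose from 31.2 to 69.5 CPM (1.15, adjusted p = 1.33e-05). Car1, Pklr, Trim58 and Hemgn had 0 counts in all 8 libraries.

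The factors that switch on these genes in erythroid precursors were almost not seen. Of 10 erythroid transcription factors and receptors, 4 were tested. Gata1, Nfe2 and Gfi1b had 0 counts in all 8 libraries, and Epor, the erythropoietin receptor, had 2 counts in 1 of them. Ldb1, a cofactor of many cell types, rose (0.97, adjusted p = 0.013 from edgeR), and Lmo2 and Zfpm1 had log2 fold changes of -0.05 and 0.25 (adjusted p = 0.979 and 0.776). Of 10 genes for heme breakdown and clearance, 9 were tested and 0 were called in either direction by edgeR or DESeq2 (1 at an unadjusted p under 0.05), with a median log2 fold change of 0.16. Among them Hmox1, the inducible heme oxygenase, was at 5.72 CPM in Bbs8+/+ and 8.38 CPM in Bbs8-/- libraries (0.53, adjusted p = 0.561), Slc48a1, a heme transporter, at 677 and 596 CPM (-0.18, adjusted p = 0.186) and Lrp1, a receptor for heme bound to hemopexin, at 330 and 374 CPM (0.18, adjusted p = 0.231).

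Over all of these lists without the 8 genes, 60 genes were tested, of which 13.3% fell and 10.0% rose, beside 6.80% and 5.46% of all tested genes. The called genes of these lists thus moved in both directions.

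The other contents of blood and the cells of its vessels were measured with fixed marker lists, each summed over a library. Endothelial markers came to 228.5 to 248 CPM in Bbs8+/+ and 198 to 213 CPM in Bbs8-/- libraries. These did not overlap, yet the difference of -0.23 on the log2 scale was small beside that of globin. Of 13 tested endothelial genes, 0 were called by edgeR or DESeq2 (2 at an unadjusted p under 0.05). Ramp2 (119 CPM) and Podxl (71.4 CPM) gave most of the Bbs8+/+ mean of 242 CPM. Of the 13 genes, 8 had a positive log2 fold change and 5 a negative one, with a median of 0.11. Leukocyte markers came to 343 to 459 CPM and 285 to 345 CPM, which overlapped (-0.26). Csf1r gave 318 of the mean of 390 CPM in Bbs8+/+ and 263 of 325 CPM in Bbs8-/- libraries. Of 9 tested genes, 5 had a positive log2 fold change and 4 a negative one, with a median of 0.53. Only 1 was called, Cd74 of antigen-presenting cells, which fell (-1.0, adjusted p = 0.0134 from edgeR, 0.0700 without Bbs8+/+ replicate 4 and 0.0654 without Bbs8-/- replicate 2). Platelet markers were near the floor, at 8.18 to 9.82 CPM over 10 genes in Bbs8+/+ and 2.00 to 9.43 CPM in Bbs8-/- libraries. These overlapped, with a log2 difference of -1.17. Of the 10 genes, 2 were tested, both with a negative log2 fold change, and 0 were called. Markers of pericytes and smooth muscle differed by -0.05 and those of melanocytes and choroidal stroma by -0.01, with overlap in both.

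Larger shifts were seen in cells that the dissection aims to leave behind. Photoreceptor markers came to 55898 to 60301 CPM in Bbs8+/+ and 23090.5 to 23688 CPM in Bbs8-/- libraries, a log2 difference of -1.31 beside the -1.34 of the globin total, and of 17 tested genes 13 fell and 3, all of them cone genes, rose. Lens markers came to 3379 to 3614 CPM and 467 to 522 CPM (-2.86), and 16 of 16 tested genes fell. The RPE marker total was higher in the knockout, at 48763 to 52596 CPM against 40543 to 41600 CPM (0.30), through Ttr, a secreted carrier of thyroid hormone and retinol, which gave 31748 and 20932 CPM on average. Without Ttr, an alternative added after the values had been seen, the direction turned, with 18736 to 19373.5 CPM in Bbs8-/- and 20032 to 20549 CPM in Bbs8+/+ libraries (-0.10). Of the 14 genes, 4 fell and 2 rose. By an exact permutation test, two-sided, the endothelial, photoreceptor, lens and RPE totals each had p = 0.0286, the smallest that 4 libraries against 4 allow. After adjustment over the 8 lists each was 0.0571, so no list had an adjusted p under the threshold. With this smallest p and 8 lists, a single list could not pass however large its shift. The test therefore cannot tell large shifts from small ones. The part of these cells in the globin result was not tested.

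Ratios within a library set globin against each of these cells without any scaling. Globin counts per endothelial marker count were 23.0, 20.6, 23.2 and 22.1 in Bbs8+/+ and 10.4, 10.7, 10.8 and 9.49 in Bbs8-/- libraries. The genotypes stayed apart, at 2.16-fold lower in the knockout. Most of these endothelial counts came from Ramp2 and Podxl. Per RPE marker count globin was 3.101-fold lower, or 2.36-fold lower with Ttr left out of the RPE markers, and per leukocyte marker count 2.10-fold lower, again with no overlap. Most of the leukocyte counts came from Csf1r. Per photoreceptor marker count, a ratio added after the values had been seen, globin came to 0.0940, 0.0915, 0.0934 and 0.0915 in Bbs8+/+ and to 0.0933, 0.0937, 0.0924 and 0.0839 in Bbs8-/- libraries. Here the genotypes overlapped (0.0926 ± 0.00128 against 0.0909 ± 0.00464, SD, n = 4), and the log2 ratio was -0.03. Against 6 rod genes alone globin was higher in every knockout library by 0.20 on the log2 scale, and against lens markers by 1.53. The direction of the globin difference thus depended on which cells it was set against.

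**Figure D4:**
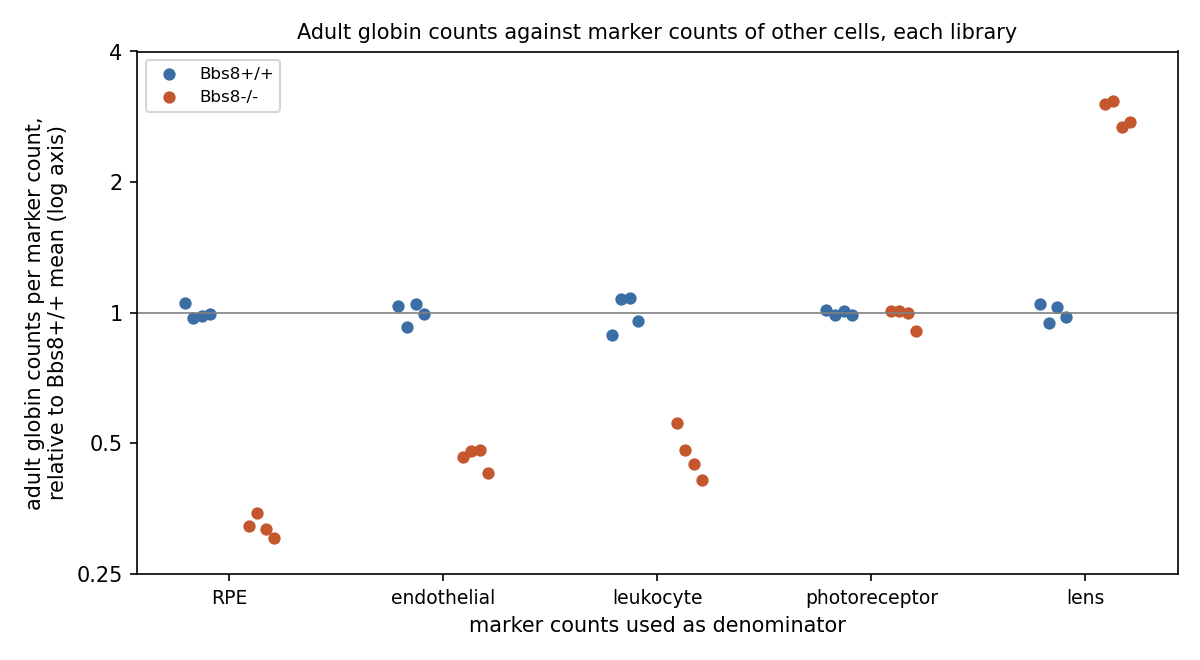
Adult globin counts divided by the marker counts of 5 other cell types in the same library, relative to the Bbs8+/+ mean (vertical log axis), with 1 point per Bbs8+/+ (blue) or Bbs8-/- (orange) library. Knockout libraries lie below the wild type against RPE, endothelial and leukocyte markers, overlap it against photoreceptor markers (log2 ratio -0.03) and lie above it against lens markers (log2 ratio 1.53).

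Among the genes whose profile over the 8 libraries was most like that of the globin total were Hk2, Stk35, Pde6a and Pde6g. Likeness was the root mean square difference of log2 CPM, each centered on its own mean, over the 8421 genes that averaged 10 CPM or more, and it was 0.0467 for Hk2, 0.0677 for Stk35, 0.0706 for Pde6a and 0.0722 for Pde6g. For comparison, it was 0.0281 for Hbb-bs and 0.470 for Alas2, whose low counts add spread. Hk2, a hexokinase, was at 593, 522, 551 and 568 CPM in Bbs8+/+ and at 219, 244, 229 and 204 CPM in Bbs8-/- libraries. All 4 were lower in every knockout library, with log2 fold changes of -1.39 to -1.32. Both follow from the way these genes were picked, since the profile of the globin total is mostly its genotype difference. Pde6a and Pde6g encode subunits of the rod phosphodiesterase. All genes of a library share its dissection and depth, and a list picked for likeness gets no test.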

How the data were processed

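RNA (30 ng) of 8 RPE samples was made into QuantSeq 3′ libraries and read from 1 end, with reads of 100 bp. After trimming, the authors aligned reads to mm10 with STAR and deposited raw counts per Ensembl gene from htseq-count, with no normalization and no filter. Alignments that were not unique made up 32.8% to 34.5% of all counts of a library, rows that name no gene included. They stayed out of the gene counts, as did the other rows that name no gene. This lowers the counts of near-identical genes such as the globins. Groups came from the labels. Symbols and positions came from GENCODE M21 (GRCm38).

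Counts were analyzed in R 4.3.3 with edgeR 4.0.16 and limma 3.58.1. Genes that reached 1 CPM in 4 or more of the 8 libraries were kept, scaled by TMM and tested with edgeR's quasi-likelihood F test, with Benjamini-Hochberg adjustment over all tested genes and a threshold of 0.05. The filter of the study on multi-mapping reads needs the alignments and was not repeated. CPM values are counts scaled by TMM, except for the filter and the floor, which used library size alone. Marker totals were compared with an exact permutation test of log2 sums. The fit was tested on simulated data. Alternatives were DESeq2 1.42.0, a likelihood ratio test, other scalings and filters, robust shrinkage, the replicate block and each library left out in turn. Replicate numbers did not pair the libraries. Named were the 8 genes, Ttc8, the called genes of each list or up to 3 with the highest CPM, and the 5 genes most like globin. Further genes, among them those listed at or near 0 counts and Apex2, were named after their values were seen. Some genes covered by this rule are not reported. The genes and lists were chosen with earlier results of these data known.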

Additional observations from a re-analysis of the deposited data

Results flagged for a closer look

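In 88 groups of 4 libraries, 1 library was compared with the other 3 of its genotype, and in 8 it lay farther off than Dixon's 95% limit allows. Chance does this in about 1 group in 20. Within Bbs8-/-, replicate 4 had the lowest globin per photoreceptor marker count (0.0839, with the other 3 up to 0.0937) and the lowest globin per rod marker count (0.143, with the other 3 up to 0.161). In Bbs8+/+ libraries, Cygb was high in replicate 1 (189.9 CPM), Cd74 in replicate 4 (32.0 CPM) and Ireb2 in replicate 3 (55.6 CPM), while Add1 was low in replicate 2 (144 CPM), as was the summed RPE marker level (40543 CPM). Ireb2 was also high in Bbs8-/- replicate 2 (85.3 CPM).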

How the results depend on the processing

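The calls of the 4 globin genes and Alas2 held in every alternative, and Fech and Bpgm did not pass in any. Slc4a1 was not tested with edgeR's own filter or without Bbs8+/+ replicate 1, 2 or 4 or Bbs8-/- replicate 3, and DESeq2 gave it no adjusted p. With single libraries left out, the log2 fold change was -1.43 to -1.36 for Hba-a1, -1.40 to -1.26 for Hba-a2, -1.36 to -1.32 for Hbb-bs, -1.15 to -1.09 for Hbb-bt, -2.05 to -1.49 for Alas2 and -0.09 to 0.29 for Bpgm. Library size scaling shifted the median log2 fold change of all genes by 0.088 and gave 1005 higher and 657 lower genes, so that 60.5% of calls were higher, against 704, 877 and 44.5% with TMM. The log2 ratio of the globin total was -1.25 as a share of gene counts. Per endothelial marker count it was -1.11, and with other denominators -1.63 (RPE) or, for those added after seeing the data, -1.24 (RPE without Ttr), -0.03 (photoreceptor), 1.53 (lens) and 0.20 (rod). The RPE marker total changed sign without Ttr (-0.10 in place of 0.30). As shares of gene counts, the marker totals of pericytes and smooth muscle (0.03) and of melanocytes and choroidal stroma (0.08) changed sign. With single libraries left out, marker totals ranged over -0.32 to -0.18 (leukocyte), -1.56 to -0.82 (platelet), -0.25 to -0.21 (endothelial), -0.12 to 0.03 (pericyte and smooth muscle), 0.28 to 0.32 (RPE), -0.05 to 0.04 (melanocyte and choroid), -1.32 to -1.29 (photoreceptor) and -2.90 to -2.84 (lens), with adjusted p-values down to 0.0457, and 3 to 5 genes of the red cell and heme lists rose in place of 6, with 3 without Bbs8+/+ replicate 1 or Bbs8-/- replicate 3. The cause of these shifts was not tested. Same-numbered libraries did not deviate together (correlations -0.0321 to 0.00672), so the numbers do not pair them. With the replicate block, 650 genes were higher and 827 lower, and the block changed the call of none of the 8 genes (Alas2 -1.76, Bpgm 0.06), but Ireb2 and Slc2a1 no longer passed.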

Other observations

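A pair of erythroid genes, singled out after their values were seen, had counts in 1 library above all. Bbs8-/- replicate 2 had 10 counts of Klf1, a transcription factor of erythroid precursors, where the other 7 libraries had at most 1. It also had 4 counts of Rhag, a red cell membrane protein, with 3 in Bbs8+/+ replicate 1 and 0 elsewhere. The globin total of this library, 2192 CPM, lay within the range of the other knockout libraries.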
